A study of Mus musculus with 7 samples.

Results

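The receptor machinery with which the proximal tubule takes up filtered protein was described here through 8 genes, Lrp2, Cubn, Amn, Dab2, Clcn5, Ocrl, Lrpap1 and Fcgrt, chosen by symbol among 42256 gene identifiers of a kidney count table. All 8 matched 1 identifier each and all 8 passed the filter on low counts. The libraries came from whole kidneys of adult males, 4 of genotype CDH11-/- and 3 of genotype CDH11+/+, whose strain background is given as Mixed:129S1/Sv x C57BL/6. CDH11 is cadherin-11, an adhesion molecule of mesenchymal cells. Every mouse, of either genotype, had 1 kidney removed and an osmotic pump placed that delivered angiotensin II at 800 ng/kg/min, and the remaining kidney was taken 4 weeks later. No mouse without this injury was included, so a difference between genotypes that existed before injury cannot be told apart from one in the response to it. The labels do not describe the allele.

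Filtered albumin, hormones, vitamin carriers and small enzymes are taken back from the tubule fluid by a pair of giant receptors on the brush border of the proximal tubule. Megalin, encoded by Lrp2, is a member of the LDL receptor family. Cubilin, encoded by Cubn, has no membrane anchor of its own and reaches the surface only with amnionless, encoded by Amn. Dab2 is the clathrin adaptor that binds the megalin tail, Lrpap1 encodes the RAP chaperone that keeps newly made LDL receptor family proteins from binding ligands early, and Fcgrt encodes the neonatal Fc receptor, which rescues IgG and albumin from degradation. Clcn5 encodes the endosomal chloride-proton exchanger that is defective in Dent disease, and Ocrl the phosphoinositide phosphatase that is defective in Lowe syndrome. In both human diseases low-molecular-weight proteins are lost in the urine. All 8 are protein-coding genes, placed here on build mm10: Lrp2 (ENSMUSG00000027070, chr2:69424340-69586065, minus strand), Cubn (ENSMUSG00000026726, chr2:13276338-13491813, minus strand), Amn (ENSMUSG00000021278, chr12:111271095-111276426, plus strand), Dab2 (ENSMUSG00000022150, chr15:6299788-6440712, plus strand). The others are Clcn5 (ENSMUSG00000004317, chrX:7153810-7319358, minus strand), Ocrl (ENSMUSG00000001173, chrX:47912387-47965868, plus strand), Lrpap1 (ENSMUSG00000029103, chr5:35091501-35105766, minus strand) and Fcgrt (ENSMUSG00000003420, chr7:45092990-45103851, minus strand).

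The 300-base promoter windows of 4 of these genes are shown because they belong to the 3 rises that held without any 1 library (Lrpap1, Amn and Lrp2) and to Cubn, the partner of Amn, which did not pass the test. They come from RefSeq on build GRCm38.p6 and run 5′ to 3′ on the strand of the gene, from 250 bases before the annotated start to 50 bases after it. Capitals mark the motifs described here, on both strands.
Lrpap1, chr5:35105650-35105949, minus strand: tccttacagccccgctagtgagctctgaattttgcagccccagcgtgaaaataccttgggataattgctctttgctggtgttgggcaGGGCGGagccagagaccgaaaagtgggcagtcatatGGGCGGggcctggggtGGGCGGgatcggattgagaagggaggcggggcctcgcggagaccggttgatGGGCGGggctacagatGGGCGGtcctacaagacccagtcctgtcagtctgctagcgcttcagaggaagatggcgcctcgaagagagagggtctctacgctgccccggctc
Amn, chr12:111270846-111271145, plus strand: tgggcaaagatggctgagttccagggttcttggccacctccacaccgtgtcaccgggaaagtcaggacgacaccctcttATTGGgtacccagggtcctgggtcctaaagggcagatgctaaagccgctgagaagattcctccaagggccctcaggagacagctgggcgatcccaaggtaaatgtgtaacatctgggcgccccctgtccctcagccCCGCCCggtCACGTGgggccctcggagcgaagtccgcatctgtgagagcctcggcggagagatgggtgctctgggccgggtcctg
Lrp2, chr2:69585980-69586279, minus strand: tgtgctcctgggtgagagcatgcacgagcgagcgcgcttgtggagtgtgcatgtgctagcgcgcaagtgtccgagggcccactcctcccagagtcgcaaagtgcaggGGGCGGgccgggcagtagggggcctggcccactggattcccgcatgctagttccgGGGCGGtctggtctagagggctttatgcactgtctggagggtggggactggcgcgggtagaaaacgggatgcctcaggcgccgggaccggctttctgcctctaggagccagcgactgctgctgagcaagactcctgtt
Cubn, chr2:13491827-13492126, minus strand: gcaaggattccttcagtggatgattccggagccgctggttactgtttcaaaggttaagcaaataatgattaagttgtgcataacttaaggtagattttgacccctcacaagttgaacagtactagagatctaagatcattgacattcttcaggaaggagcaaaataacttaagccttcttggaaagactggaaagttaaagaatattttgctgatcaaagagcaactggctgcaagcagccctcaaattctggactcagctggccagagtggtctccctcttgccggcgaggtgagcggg
The Cubn window lies wholly before the first base of the gene in GENCODE M21, whose end on this strand is at 13491813. The motifs described are the GC box GGGCGG, the CCAAT box CCAAT, the E-box CACGTG, the nuclear receptor core AGGTCA, the TATA box TATAAA and the steroid receptor core TGTTCT. No matches overlapped in these 4 windows.

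The Lrpap1 window held 5 GC boxes and no other match. The Lrp2 window held 2 GC boxes, and the Amn window 1 GC box, 1 CCAAT box and 1 E-box. The Cubn window held none of these motifs. All 8 genes had a window, and Dab2 and Clcn5 had 2 each. At least 1 GC box stood in 5 of the 10 windows (those of Lrp2, Amn, Ocrl and Lrpap1 and 1 of Clcn5), against 35.7% of 32851 promoter windows of that length. The E-box stood in 7.15% and the CCAAT box in 37.4% of all windows. GC content was 61.3%, 62.3%, 65.0% and 44.3% in the windows of Lrpap1, Amn, Lrp2 and Cubn, where the median of all windows was 52.7%. These are matches of letters and were not related to binding.

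Total counts were 72087906 to 84786351 per library. Cdh11 itself was not lower in the libraries labelled CDH11-/-. It stood at 11.3, 9.56, 11.6 and 10.98 CPM (counts scaled to a common library size) there, against 6.79, 4.52 and 10.8 CPM in the libraries labelled CDH11+/+ (log2 fold change 0.56, SE 0.25, adjusted p = 0.14, edgeR). The groups overlapped, so the libraries are called KO-labelled and WT-labelled after their labels. WT-labelled replicate 3 stood apart from the other 2 of its group in markers of the early proximal tubule, and its summed CPM of 4 Y-linked genes was 64.7, against 110.8 to 144.9 in the other 6 libraries. Fold changes are KO-labelled over WT-labelled. Adjusted p-values come from edgeR's quasi-likelihood test over 17964 genes, and a gene was called when its value was under 0.05. The labels do not say more of how the mice were housed or bred. The p-values set the group difference against the variation between libraries within groups, and cannot account for housing or breeding.

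Of the 8 genes, 6 were higher and 0 lower in the KO-labelled kidneys (Lrp2, Amn, Dab2, Ocrl, Lrpap1 and Fcgrt), and Cubn and Clcn5 were not called (edgeR). No log2 fold change of the 8 was below 0. Over all genes tested 16.8% were called higher, 12.9% lower and 29.7% in either direction. The rises were moderate, from 1.18-fold to 1.76-fold. The median log2 fold change of the 8 genes was 0.31, against -0.01 for all genes tested. In 7 of the 8 genes every KO-labelled library stood above every WT-labelled one, a pattern found in 21.9% of all genes tested, where 38.5% did not overlap in either direction. In bulk tissue a larger share of proximal tubule cells and more transcript per cell cannot be told apart.

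**Figure D1:**
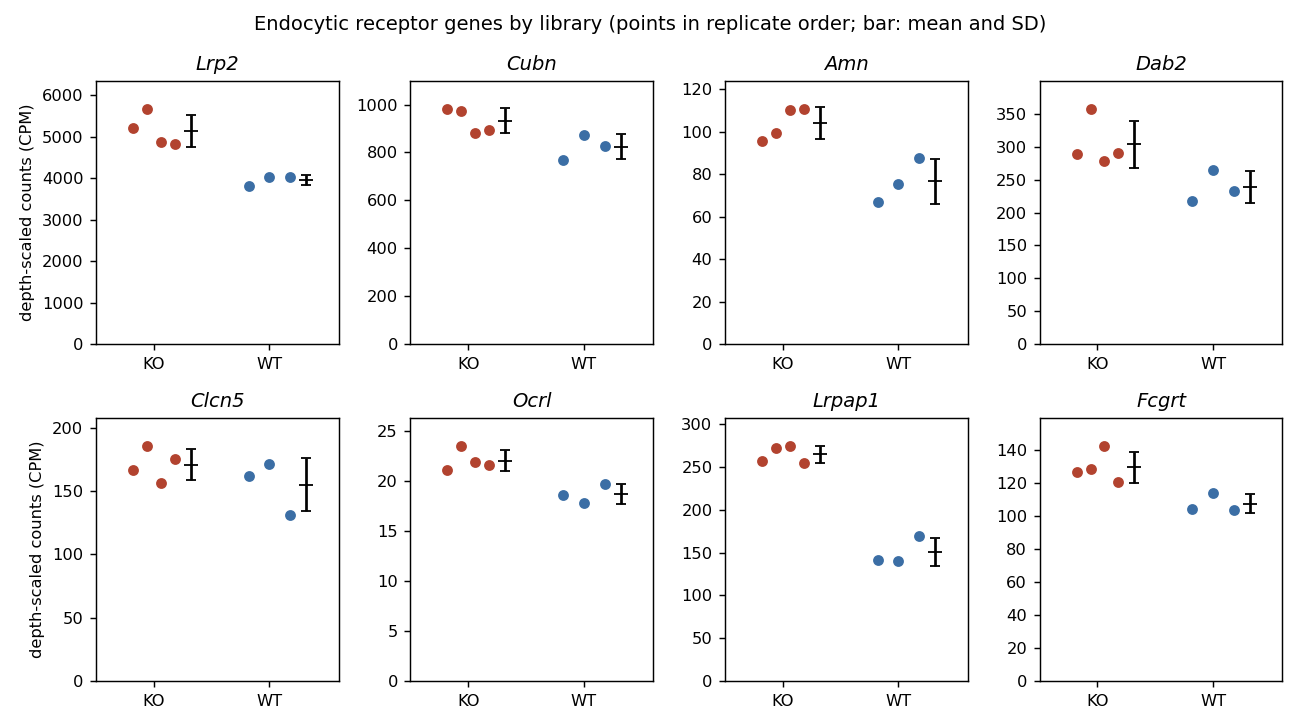
Depth-scaled counts (CPM, vertical axes from 0) of the 8 genes in each library, KO-labelled (KO, red) left and WT-labelled (WT, blue) right, points in replicate order, with the mean and SD as a black bar. The groups overlap only in Clcn5, and Lrpap1 shows the widest gap for its level, with 255.2 to 274.9 CPM in KO and 140.7 to 169.9 CPM in WT.

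Megalin transcripts rose in the KO-labelled kidneys. Lrp2 stood at 5219.6, 5659.8, 4861 and 4831 CPM in KO-labelled replicates 1 to 4, against 3808, 4018 and 4019 CPM in WT-labelled replicates 1 to 3. It took 0.474% to 0.562% of all counts in the KO-labelled libraries and 0.373% to 0.425% in the WT-labelled ones. The lowest KO-labelled library exceeded the highest WT-labelled one by more than the range of the WT-labelled group. The log2 fold change was 0.38 (SE 0.09, adjusted p = 0.0109, edgeR), a 1.3-fold rise with a 95% confidence interval of 1.14 to 1.49. The call held under all 18 other fits at the same threshold, with an adjusted p of at most 0.0439, reached without WT-labelled replicate 1.

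Cubilin did not pass the test. Cubn stood at 980.5, 973.8, 879.3 and 894.3 CPM in the KO-labelled libraries, against 770.2, 874.8 and 826.9 CPM in the WT-labelled ones. The groups did not overlap, but KO-labelled replicate 3 and WT-labelled replicate 2 lay close together. The 1.13-fold difference (95% confidence interval 1.001 to 1.28) had an adjusted p of 0.118 (edgeR), and none of the 18 other fits called it. In the authors' normalized values the groups overlapped, at 69032 to 77497 in the KO-labelled and 61361 to 69574 in the WT-labelled libraries.

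Amnionless, which carries cubilin to the membrane, rose. Amn stood at 95.4, 99.5, 110.0 and 110.5 CPM in the KO-labelled libraries, against 66.7, 75.5 and 87.4 CPM in the WT-labelled ones. All 4 KO-labelled libraries lay above the 3 others. The log2 fold change was 0.44 (SE 0.10, adjusted p = 0.00903, edgeR), or 1.36-fold, and the call held in all 18 other fits (adjusted p of at most 0.0357).

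The adaptor Dab2 stood at 288.8, 356.8, 277.8 and 289.8 CPM in the KO-labelled libraries, against 217.9, 265.1 and 232.3 CPM in the WT-labelled ones. KO-labelled replicate 2 stood apart from the other 3 of its group. The 1.27-fold rise (log2 fold change 0.35, SE 0.10, adjusted p = 0.0333, edgeR) was not called without KO-labelled replicate 2 (log2 fold change 0.25, adjusted p = 0.0653), without WT-labelled replicate 1 (adjusted p = 0.126) or without WT-labelled replicate 3 (adjusted p = 0.0766). Dab2 is also expressed by macrophages, whose marker values are given further on.

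The chaperone gene Lrpap1 had the largest rise of the set. It stood at 256.7, 272.5, 274.9 and 255.2 CPM in the KO-labelled libraries, against 141.2, 140.7 and 169.9 CPM in the WT-labelled ones. The gap between the groups was wider than the range within either. The log2 fold change was 0.81 (SE 0.08, adjusted p = 0.000223, edgeR), a 1.76-fold rise. It ranked 244 of 17964 genes by adjusted p, and 93.9% of the genes tested had a lower log2 fold change. All 18 other fits called it, with log2 fold changes of 0.76 to 0.90.

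Of the endosomal genes of Dent disease and Lowe syndrome, Clcn5 was not called and Ocrl was, with the smallest rise of the called genes. Clcn5 stood at 166.4, 185.6, 156.3 and 175.1 CPM in the KO-labelled libraries, against 162.1, 171.5 and 131.4 CPM in the WT-labelled ones. The groups overlapped and the difference was not called (1.10-fold, 95% confidence interval 0.945 to 1.29, adjusted p = 0.32, edgeR). Without WT-labelled replicate 3, the lowest library for Clcn5, the log2 fold change was 0.03, and without WT-labelled replicate 2 it was 0.22.

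Ocrl stood at 21.1, 23.5, 21.9 and 21.6 CPM in the KO-labelled libraries, against 18.6, 17.8 and 19.7 CPM in the WT-labelled ones. Its 1.18-fold rise (log2 fold change 0.24, SE 0.07, adjusted p = 0.0270, edgeR) depended on the fit. It was not called without KO-labelled replicate 2 or 3 or WT-labelled replicate 1 or 2 (adjusted p of 0.0623 to 0.0953). With the authors' factors for each gene and library as offsets the log2 fold change was 0.12 (adjusted p = 0.321). In the authors' normalized values the groups overlapped, at 1598 to 1863 in the KO-labelled and 1466 to 1662 in the WT-labelled libraries.

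Fcgrt stood at 126.9, 128.3, 142.4 and 120.4 CPM in the KO-labelled libraries, against 104.2, 113.9 and 103.7 CPM in the WT-labelled ones. The groups did not overlap. The log2 fold change of 0.27 (SE 0.07, adjusted p = 0.0205, edgeR), or 1.21-fold, was not called without KO-labelled replicate 3 (adjusted p = 0.0507), WT-labelled replicate 1 (adjusted p = 0.0845) or WT-labelled replicate 3 (adjusted p = 0.0572). It was not called either with the deposited factors as offsets (adjusted p = 0.0641). The neonatal Fc receptor is also made by endothelial cells, podocytes and myeloid cells.

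**Figure D2:**
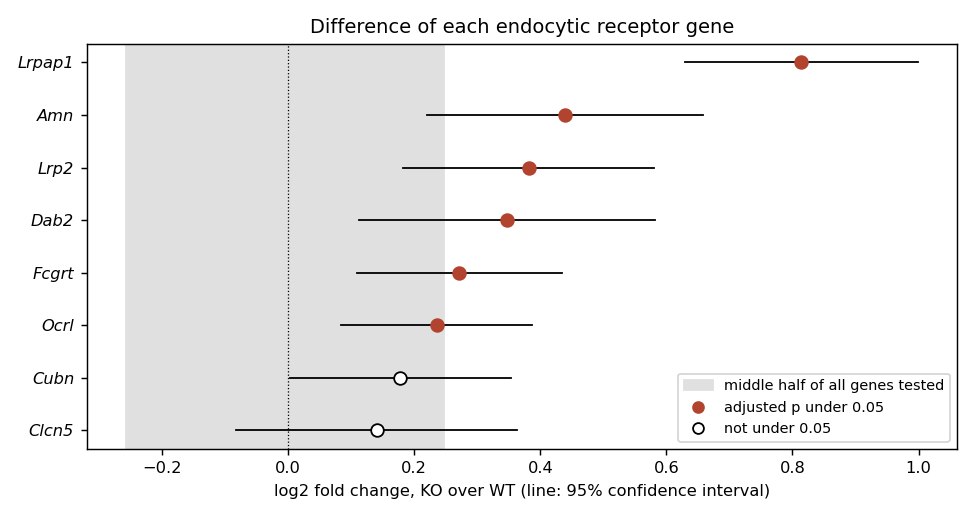
Log2 fold change of each gene, KO-labelled (KO) over WT-labelled (WT), with its 95% confidence interval as a line. Filled points have an adjusted p under 0.05, and the grey band spans the lower to the upper quartile of all genes tested (-0.26 to 0.25). Lrpap1 lies farthest right at 0.81, and Cubn and Clcn5, at 0.18 and 0.14, lie inside the band with open points.

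The number of genes called varied with single libraries. It was 3 (Lrp2, Amn and Lrpap1) without WT-labelled replicate 1, where 11.7% of all genes tested were called higher. Without KO-labelled replicate 2 it was 4 and without WT-labelled replicate 2 it was 5, with 13.2% of all genes each time. It was 4 without KO-labelled replicate 3 (13.4% of all genes) and 4 without WT-labelled replicate 3 (15.9%). All 6 were called without KO-labelled replicate 1 (15.6%) or KO-labelled replicate 4 (14.6%). With the deposited factors as offsets 4 of the 8 were called higher (Lrp2, Amn, Dab2 and Lrpap1), against 14.1% of all genes tested. At a threshold of 0.01, 2 were called higher (Amn and Lrpap1) and 0 lower, against 9.64% of all genes higher and 5.86% lower. None of the 8 was called lower in any of these fits.

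Levels were compared between genes as CPM per kilobase of annotated exons. Lrp2 had 307.9 ± 23.2 (SD, n = 4) in the KO-labelled kidneys and 236.4 ± 7.26 (SD, n = 3) in the WT-labelled ones. In the KO-labelled kidneys the order after Lrp2 was Lrpap1 at 64.3 ± 2.49, Cubn at 62.4 ± 3.52, Fcgrt at 61.6 ± 4.41, Amn at 56.3 ± 4.11, Dab2 at 41.3 ± 4.92, Clcn5 at 14.9 ± 1.09 and Ocrl at 2.32 ± 0.109 CPM per kilobase (SD, n = 4). The libraries of Lrpap1, Cubn and Fcgrt overlapped each other, as did those of Fcgrt and Amn, and the other neighbours did not overlap.

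In the WT-labelled kidneys the order differed in the place of Lrpap1. Cubn had 55.2 ± 3.51, Fcgrt 51.0 ± 2.74, Amn 41.5 ± 5.64, Lrpap1 36.6 ± 4.07, Dab2 32.5 ± 3.29, Clcn5 13.5 ± 1.83 and Ocrl 1.97 ± 0.104 CPM per kilobase (SD, n = 3). Cubn overlapped Fcgrt, Amn overlapped Lrpap1 and Lrpap1 overlapped Dab2. Exon lengths were those of all annotated transcripts of a gene together, from 1843 bases for Amn to 16701 for Lrp2, which lowers the value of a gene whose expressed transcript is shorter.

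**Figure D3:**
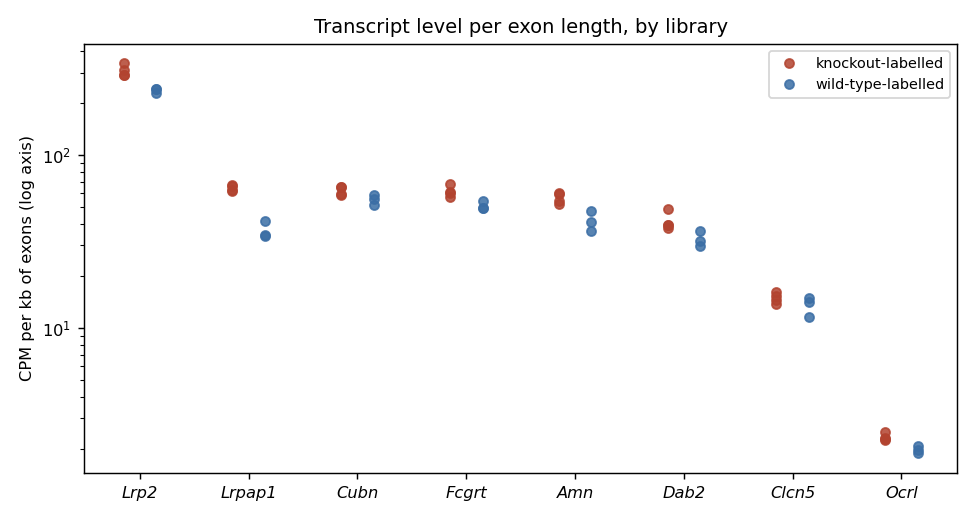
Transcript level per kilobase of exons (CPM per kb, log axis) of each gene in each library, KO-labelled (red) left and WT-labelled (blue) right, ordered by the KO-labelled mean. Lrp2 stands above all others in both groups and Ocrl below them, and Lrpap1 lies beside Cubn in the KO-labelled libraries but beside Amn in the WT-labelled ones.

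The balance between receptors and their partners was examined in 5 ratios of these levels, library by library. Megalin over its chaperone was 5.01, 5.12, 4.36 and 4.66 in the KO-labelled libraries, against 6.65, 7.04 and 5.83 in the WT-labelled ones. The groups did not overlap (log2 difference -0.44, exact permutation p = 0.0571, 2-sided, 0.143 adjusted over the 5 ratios). Megalin over cubilin was 4.76, 5.20, 4.94 and 4.83 in the KO-labelled libraries, against 4.42, 4.11 and 4.35 in the WT-labelled ones, also without overlap (log2 difference 0.20, exact permutation p = 0.0571, adjusted 0.143). With 4 against 3 libraries 0.0571 is the smallest 2-sided p possible, so none of these ratios could pass 0.05.

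The other 3 ratios overlapped between the groups. Cubilin over amnionless was 1.27, 1.21, 0.987 and 0.999 in the KO-labelled libraries, against 1.42, 1.43 and 1.17 in the WT-labelled ones (exact permutation p = 0.171, adjusted 0.286). Megalin over Dab2 was 6.97 to 7.94 in the KO-labelled and 6.66 to 7.68 in the WT-labelled libraries (exact permutation p = 0.629, adjusted 0.629). Clcn5 over Ocrl was 5.91 to 6.71 in the KO-labelled and 5.51 to 7.99 in the WT-labelled libraries (exact permutation p = 0.457, adjusted 0.571).

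Within groups, Lrp2, Cubn and Dab2 deviated from their group means together. Pearson's r of these deviations in log2 CPM over 7 libraries was 0.79 for Lrp2 and Cubn, 0.83 for Lrp2 and Dab2 and 0.74 for Cubn and Dab2. It was 0.77 for Ocrl and Lrpap1 and 0.70 for Amn and Lrpap1. It was -0.78 for Clcn5 and Lrpap1, -0.64 for Amn and Clcn5 and -0.17 for Lrp2 and Amn. WT-labelled replicate 3 was the highest of its group for Ocrl, Amn and Lrpap1 and the lowest for Clcn5. Among 12764 other protein-coding genes averaging 1 CPM or more, the deviations most like those of Lrp2 were those of Arhgap24 (r = 0.99), Gosr2 (r = 0.99), Gbf1 (r = 0.98), Slirp (r = 0.98) and Gpr179 (r = 0.98). Of these 5, Gpr179 was called higher and the other 4 were not called. These values describe 7 libraries that share their scaling, and the best of so many genes can reach a high r over so few libraries. KO-labelled replicate 2 was the highest of its group for Lrp2 and Dab2. Besides Lrp2 and Amn, the pairs named had the largest r in size among all pairs of the endocytic genes. No r was computed with a library left out.

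Most transporters and enzymes that mark the same tubule cells rose as well. Of 12 markers of the early proximal tubule (segments S1 and S2), 9 were called higher and 0 lower, and the median log2 fold change was 1.13. The 75% called higher compare with 16.8% of all genes tested. With single libraries left out, 6 to 10 of the markers were called higher, against 11.7% to 15.9% of all genes tested. Their summed CPM was 9489 to 10894 in the KO-labelled and 4864 to 6614 in the WT-labelled libraries. The sodium-phosphate cotransporter Slc34a1 averaged 3925 ± 231 CPM (SD, n = 4) in the KO-labelled kidneys and 1787 ± 365 CPM (SD, n = 3) in the WT-labelled ones, 2.2-fold higher (adjusted p = 0.000433, edgeR). Miox, the inositol oxygenase, was 2.17-fold higher and Ass1, the argininosuccinate synthase, 1.79-fold higher. Slc5a12, Slc2a2 and Slc13a3, transporters of lactate, glucose and dicarboxylates, were not called, with log2 fold changes of 1.18, -0.08 and -0.12.

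The mean log2 CPM of these 12 markers was 8.72, 8.86, 8.68 and 8.62 in the KO-labelled libraries, against 7.39, 7.44 and 8.14 in the WT-labelled ones. WT-labelled replicate 3 lay between the other 2 WT-labelled libraries and the KO-labelled group. The log2 difference of 1.06 was 1.30 without that library.

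The 8 endocytic genes were also set against these markers in the same library. Because the marker mean itself was 1.06 higher in the KO-labelled group, most genes lie lower on this scale. Of all genes tested, 96.3% had a lower mean in the KO-labelled kidneys, 79.1% lay lower in every KO-labelled library than in any WT-labelled one, and the median difference was -1.07. All 8 endocytic genes also had a lower mean, but each difference was smaller in size than that median. The same marker shift enters every gene, so this only restates that their log2 fold changes lay above the median of all genes. Lrp2 minus the marker mean, in log2 units, was 3.63, 3.61, 3.57 and 3.62 in the KO-labelled libraries, against 4.51, 4.53 and 3.83 in the WT-labelled ones. The groups did not overlap, and the difference was -0.68 (exact permutation p = 0.0571, 0.0653 adjusted over the 8 genes). Any gene without overlap gets this p, the smallest possible with 4 against 3 libraries. For Cubn it was -0.88, for Amn -0.62, for Dab2 -0.72, for Clcn5 -0.92, for Ocrl -0.83 and for Fcgrt -0.79, each without overlap and with the same p. Lrpap1 overlapped between the groups, with a difference of -0.24 (exact permutation p = 0.229), which became -0.40, without overlap, when WT-labelled replicate 3 was left out.

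Leaving out WT-labelled replicate 3 made every one of these differences larger (-0.91 for Lrp2 and -1.27 for Clcn5). Leaving out WT-labelled replicate 1 made that of Lrpap1 -0.15. The spread of the ratio between the 4 KO-labelled libraries was 0.03 for Lrp2 (SD of log2 values) and 0.40 between the 3 WT-labelled ones.

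**Figure D4:**
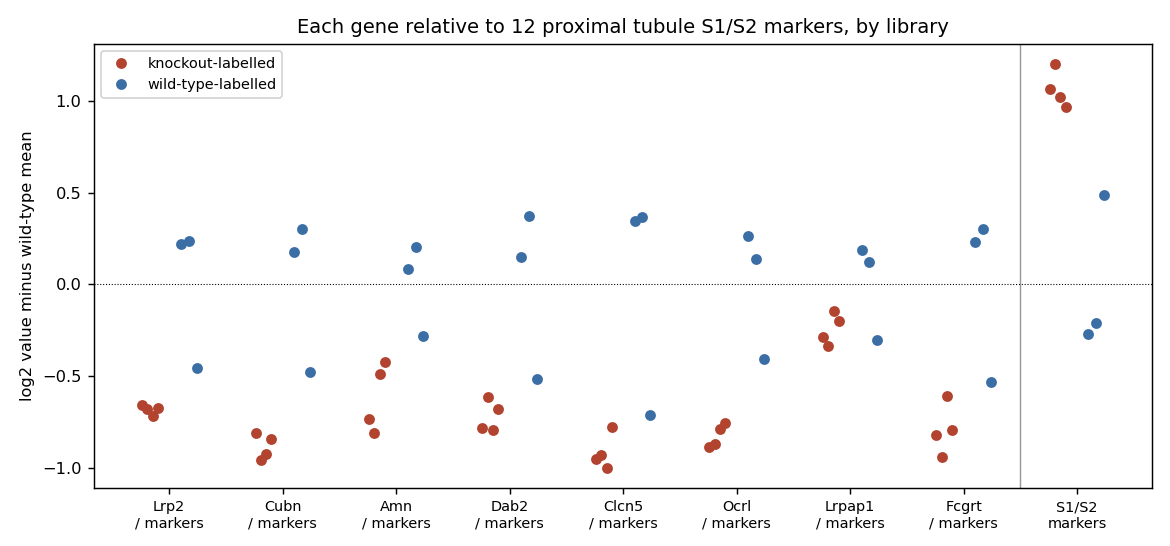
Log2 CPM of each gene minus the mean log2 CPM of 12 proximal tubule S1 and S2 markers in the same library, shown relative to the WT-labelled mean, KO-labelled (red) left and WT-labelled (blue) right, 1 point per library. The last column shows the markers themselves, 1.06 higher on average in the KO-labelled group. All genes but Lrpap1 lie lower in every KO-labelled library than in any WT-labelled one, as did 79.1% of all genes tested, and WT-labelled replicate 3 is the lowest blue point of each of the 8 genes.

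Markers of the late proximal tubule (segment S3) were called higher in 9 of 12 and lower in 2 (Slc5a1 and Slc5a10), with a median log2 fold change of 1.29. Among them Atp11a, a phospholipid flippase, averaged 1654 ± 93.7 CPM (SD, n = 4) in the KO-labelled and 413.3 ± 93.4 CPM (SD, n = 3) in the WT-labelled kidneys, and the organic anion transporter Slc22a7 was 18.1-fold higher. The aminotransferase Aadat was 2.35-fold higher. Several, such as Slc7a13, Slco1a1 and Cyp7b1, are known for higher expression in male than in female mouse kidney. Their summed CPM was 3911 to 4104 in the KO-labelled and 1228 to 1412 in the WT-labelled libraries. Of all genes tested, 16.8% were called higher and 12.9% lower.

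Markers of other nephron segments and cell types were mostly not called or lower. Over all genes tested 12.9% were called lower and 16.8% higher, the shares to set beside the cell type marker counts that follow. Podocyte markers were lower in 5 of 8 (median log2 fold change -0.51), among them Wt1 (1.79-fold lower), Podxl (1.41-fold) and Ptpro (1.39-fold). Their summed CPM was 299.9 to 419.8 in the KO-labelled and 456.3 to 561.0 in the WT-labelled libraries. Endothelial markers were lower in 5 of 10 (median -0.31), among them the VEGF receptor Flt1 (1.61-fold lower), Pecam1 (1.29-fold lower) and Tie1 (1.23-fold lower, not called without WT-labelled replicate 1). The number was 2 without WT-labelled replicate 1 and 3 without KO-labelled replicate 1 or 4 or WT-labelled replicate 3. Their summed CPM was 399.6 to 480.8 in the KO-labelled and 526.9 to 651.7 in the WT-labelled libraries. Podocytes and endothelium also make Fcgrt, and which cells its transcripts came from was not tested.

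Macrophage and dendritic cell markers were called higher in 1 of 10, Csf1r, with a median log2 fold change of -0.33. That call was lost without KO-labelled replicate 1, 3 or 4 or WT-labelled replicate 1. Their summed CPM overlapped, at 126.3 to 176.9 in the KO-labelled and 80.4 to 241.3 in the WT-labelled libraries. Without WT-labelled replicate 2, 4 of these markers were called lower. Lymphocyte markers summed to 2.72 to 3.01 CPM in the KO-labelled and 1.24 to 4.77 CPM in the WT-labelled libraries, and 0 of 8 were called by edgeR, with 1 called lower without WT-labelled replicate 2. Cd8a, Cd4 and Cd3e, the members with the highest CPM, had log2 fold changes of 0.06, -0.68 and -0.13. No listed gene of any cell type was at 0 in all libraries.

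Injured tubule markers were lower in 3 of 10 and higher in 0 (median -0.50), all 3 of them keratins. Krt18 averaged 12.5 ± 1.40 CPM (SD, n = 4) in the KO-labelled and 36.5 ± 13.3 CPM (SD, n = 3) in the WT-labelled kidneys. The summed CPM of the list was 763.8 to 1046 in the KO-labelled and 934.8 to 1221 in the WT-labelled libraries. Krt8 was 1.81-fold and Krt20 2.5-fold lower. Krt20 was near the floor, at 0.42 CPM on average in the KO-labelled and 1.06 CPM in the WT-labelled kidneys. A filter of at least 1 CPM on average removed Krt20, so that fit did not test it. Without WT-labelled replicate 2, 6 of these markers were lower. Principal cell markers were lower in 4 of 7 (median -0.43), among them Scnn1g and Avpr2, with 2 lower without KO-labelled replicate 2. The medians were -0.53 for 6 intercalated cell markers, -0.34 for 6 of the distal convoluted tubule and -0.36 for 6 of the thick ascending limb, where Kcnj1 was 1.59-fold lower and Cldn10 1.25-fold higher. Cldn10 was not called without KO-labelled replicate 2 or WT-labelled replicate 1 or 2, and 3 thick limb markers were lower without WT-labelled replicate 2 and 2 without WT-labelled replicate 3. Distal convoluted tubule markers were lower in 2 of 6, Slc12a3 (1.71-fold) and Klhl3, with 1 lower without KO-labelled replicate 1, 3 or 4 or WT-labelled replicate 2, and 2 higher without KO-labelled replicate 1. Intercalated cell markers were lower in 3 of 6 (Slc4a9, Slc4a1 and Atp6v1g3), with 0 or 1 called without each library other than WT-labelled replicate 3. Fibroblast and mural markers had 1 higher (Col1a1) and 1 lower (Pdgfrb) of 8, and Col1a1 was not called without KO-labelled replicate 1, 3 or 4 or WT-labelled replicate 1. Without WT-labelled replicate 3, 2 of these were higher. The part of cell make-up in the rise of the receptor genes was not tested.

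In the lists with 0 genes called in a direction by edgeR, DESeq2 also called 0 and 0 had an unadjusted edgeR p under 0.05 in that direction, with 4 exceptions. Of the clathrin genes 2 were lower by DESeq2 and 2 at the unadjusted p, and of the Fc receptor genes 1 and 1. Of the distal convoluted tubule markers 1 was higher by DESeq2 and 1 at the unadjusted p, and of the macrophage and dendritic cell markers 0 were lower by DESeq2 and 1 at the unadjusted p.

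The general clathrin machinery, which these receptors share with other cargo, was mostly not called. Of 18 coat and adaptor genes 3 were called higher and 0 lower, with a median log2 fold change of 0.09. These were Clta, a clathrin light chain (1.25-fold), Ap2m1, the cargo-binding subunit of the AP-2 adaptor (1.21-fold), and the epsin Epn1 (1.26-fold). Ap2m1 averaged 156.7 ± 2.48 CPM (SD, n = 4) in the KO-labelled and 129.3 ± 3.07 CPM (SD, n = 3) in the WT-labelled kidneys. The clathrin heavy chain Cltc was not called (log2 fold change -0.16). The 16.7% called higher were close to the 16.8% of all genes. Cltc was picked for its role with its values known. Without WT-labelled replicate 1, 1 gene of the list was lower.

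Genes of endosomal sorting and recycling were called higher in 7 of 22 and lower in 0, with a median log2 fold change of 0.13. Inpp5b, a phosphatase closely related to Ocrl, averaged 70.7 ± 1.47 CPM (SD, n = 4) in the KO-labelled and 50.8 ± 3.38 CPM (SD, n = 3) in the WT-labelled kidneys, 1.39-fold higher (adjusted p = 0.000684, edgeR). The sorting nexins Snx27 and Snx1 were 1.29-fold and 1.24-fold higher and the retromer subunit Vps29 1.21-fold higher. The other 3 were Rab5c, Ehd1 and Myo6. The number was 4 without WT-labelled replicate 1, where 11.7% of all genes tested were called higher.

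Endosomal phosphoinositide enzymes had a median log2 fold change of 0.07. Of 14, 4 were called higher (28.6%) and 1 lower (7.14%), against 16.8% and 12.9% of all genes tested. Besides Inpp5b these were Pik3r4, a subunit of the class III PI3-kinase (1.26-fold), the phosphatase Fig4 (1.26-fold) and Mtmr2, while Inpp4a was 1.21-fold lower, and was not called in the absence of WT-labelled replicate 2 (adjusted p = 0.0589, edgeR). Subunits of the vacuolar proton pump and CLC exchangers other than Clcn5 were called higher in 3 of 22 and lower in 0 (median 0.10). The 13.6% called higher were below the 16.8% of all genes tested. The B2 subunit gene Atp6v1b2 was 1.34-fold higher, at 224.4 ± 10.2 CPM (SD, n = 4) in the KO-labelled and 167.7 ± 9.04 CPM (SD, n = 3) in the WT-labelled kidneys. Clcn4, which encodes a close relative of ClC-5, was 1.28-fold higher, and Atp6v0a2 1.22-fold. Without WT-labelled replicate 3, 1 gene of the list was lower.

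**Figure D5:**
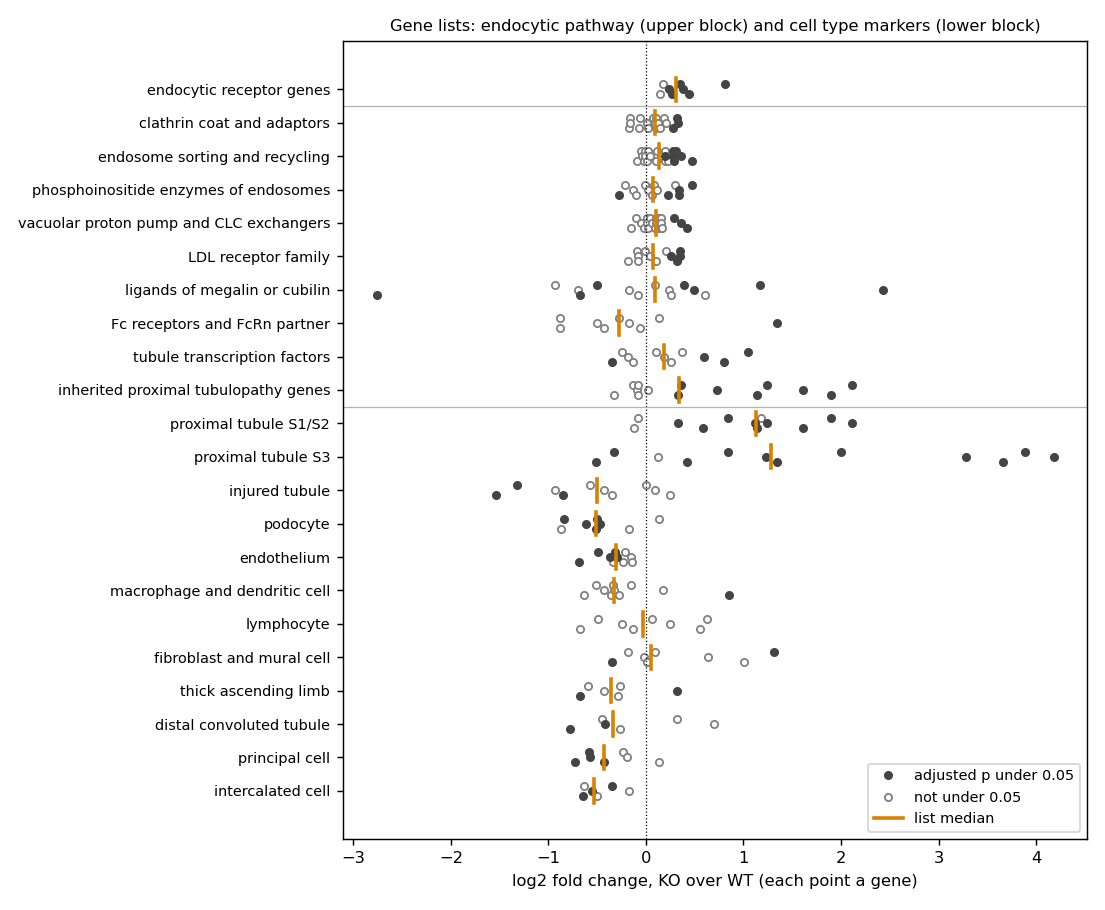
Log2 fold change (KO-labelled over WT-labelled) of every tested gene of each list, dark where the adjusted p was under 0.05, with the list median as an orange bar; endocytic pathway lists stand in the upper block and cell type markers in the lower. The endocytic receptor genes, at a median of 0.31, lie above the clathrin and proton pump lists (0.09 and 0.10) and below both proximal tubule marker lists (1.13 and 1.29). In the upper block the inherited proximal tubulopathy list has a higher median, 0.34.

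RAP is also a chaperone for some other members of the LDL receptor family. Of 12 other family members tested, 4 were called higher (33.3%, against 16.8% of all genes tested) and 0 lower (median log2 fold change 0.08). Lrp10 was 1.2-fold and Vldlr 1.27-fold higher, and Lrp4 and Lrp11 1.27-fold and 1.25-fold. The number was 2 without KO-labelled replicate 3 or WT-labelled replicate 1 or 2, where 11.7% to 13.4% of all genes tested were called higher. Lrp11 was not called when any library other than KO-labelled replicate 1 was left out, nor Lrp4 without KO-labelled replicate 3 or WT-labelled replicate 1 or 2. Lrp1 and Lrp6, picked with their values known, were not called (log2 fold changes -0.18 and 0.11).

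Transcripts of proteins that megalin or cubilin bind moved in both directions, 4 higher and 3 lower of 15 tested (median 0.09). The shares of 26.7% and 20% compare with 16.8% and 12.9% of all genes tested. Selenop, the selenium carrier that megalin takes up in the proximal tubule, averaged 1662 ± 160 CPM (SD, n = 4) in the KO-labelled and 737.4 ± 98.8 CPM (SD, n = 3) in the WT-labelled kidneys, 2.25-fold higher (adjusted p = 0.000196, edgeR). Tcn2, the cobalamin carrier transcobalamin, was 1.41-fold higher. Gc, the vitamin D-binding protein, averaged 5.58 ± 1.14 CPM (SD, n = 4) in the KO-labelled and 37.8 ± 6.83 CPM (SD, n = 3) in the WT-labelled kidneys, 6.78-fold lower (adjusted p = 5.18e-05, edgeR). Apoh was 1.6-fold lower. The remaining calls were Mt1, which was lower, and Apom and Plg, which were higher, Plg at under 1 CPM in both groups. Most of these ligands reach the tubule from blood, so kidney transcripts do not measure how much ligand was filtered.

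B2m, the light chain with which the neonatal Fc receptor pairs, was not called, with a log2 fold change of -0.17. Of 9 Fc receptor genes and partners tested, 1 was higher (11.1%, against 16.8% of all genes tested) and 0 lower (median -0.28). It was Fcamr, a receptor for IgA and IgM, at 10.6 ± 0.121 CPM (SD, n = 4) in the KO-labelled and 4.16 ± 0.392 CPM (SD, n = 3) in the WT-labelled kidneys, 2.55-fold higher (adjusted p = 4.46e-05, edgeR). Without WT-labelled replicate 2, 2 of these genes were lower.

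Among 11 tested transcription factors of the tubule 3 were higher and 1 lower (median 0.18). The shares of 27.3% and 9.09% compare with 16.8% and 12.9% of all genes tested. Among the higher ones, the nuclear receptor gene Hnf4g was 1.74-fold and Maf, a bZIP factor gene, 1.51-fold higher. Tfeb, a regulator of lysosomal genes, was 1.27-fold lower, and without WT-labelled replicate 3 there were 2 factors lower. Genes of inherited proximal tubulopathies were higher in 8 of 14 (57.1%, against 16.8% of all genes tested) and lower in 0 (median 0.34). Those with the smallest adjusted p were Slc34a1, Cltrn (1.66-fold), Fah (1.28-fold) and Slc34a3 (4.32-fold). The log2 fold change of Slc34a3 was 2.74 without WT-labelled replicate 3, against 2.11 with it. The number was 5 without KO-labelled replicate 2 or 3 or WT-labelled replicate 1 or 2, where 11.7% to 13.4% of all genes tested were called higher. All but Cltrn and Fah of the 8 also stand in the list of S1 and S2 markers. Ctns, the cystinosis gene, picked with its values known, was not called (log2 fold change -0.09).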

How the data were processed

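Whole kidneys of 7 mice were sequenced, and groups came from the genotype in the labels. The deposited expected counts are estimated reads per gene given as whole numbers. Per the submitters' processing notes, DRAGEN, DESeq2 and build mm10 were used. Their versions, the annotation and the strand setting are not given in the sources used here. In the second table, the normalized signal deposited equals the counts times factors that differ between genes and libraries, which can shift a gene between libraries, so it entered only as an alternative. Per the labels' protocols, RNA was extracted with Trizol and a column kit and made into directional libraries.

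The genes, lists and tests were chosen with earlier results of these data known. Symbols, positions and exon lengths came from GENCODE M21 (same assembly as mm10). All 42256 identifiers matched. Genes passed filterByExpr (17964), were scaled by TMM and tested with edgeR 4.0.16 (R 4.3.3), quasi-likelihood with robust estimation, 2-sided, Benjamini-Hochberg over all genes, called under 0.05. SEs were the log2 fold change over the square root of F, and 95% intervals used the t distribution. The biological coefficient of variation was 15.2%. Counting error alone is small at these depths. The edgeR step was tested on simulated data. Log2 CPM used a prior count of 2. No pair of libraries agreed within sampling noise (median chi-square over genes of 2.69 to 12.8), so all were counted as separate. Pairs of KO-labelled libraries had 2.69 to 4.33. WT-labelled replicates 1 and 2 had 2.98, but replicate 3 had 6.06 with replicate 1 and 7.47 with replicate 2. Shared exonic bases with other genes were 2.46% of Cubn (Gm13270) and 2.87% of Dab2 (Gm18888), both antisense.

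Alternatives were DESeq2 1.42.0, limma-voom with quality weights (limma 3.58.1), RLE and upper-quartile scaling, other filters, no robust estimation, limma-trend on log2 of the normalized value plus 1, a fit with 1 surrogate variable (sva 3.50.0), the deposited factors as offsets, protein-coding genes only, thresholds of 0.01 and 0.1, and the omission of each library. Some genes of the lists are counted but not reported here by name. Ratios to markers used exact permutation tests. Named from the lists were up to 4 called genes (3 for cell types) by adjusted p, otherwise the 2 most abundant; genes outside this rule are given for their role or to complete a count, with their values already seen. Python 3.11.15, pandas 2.3.3 and SciPy 1.17.1 were used.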

Additional observations from a re-analysis of the deposited data

Results flagged for a closer look

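Dab2 in the KO-labelled libraries stood out because KO-labelled replicate 2 lay far above the other 3, at 356.8 CPM against 277.8 to 289.8 CPM. Its gap to the nearest library was 0.847 of the range of the group, above Dixon's 95% critical value for 4 samples. Such a value is reached by chance in about 1 of 20 groups, and 8 groups were examined. Without this library the log2 fold change of Dab2 was 0.25 (adjusted p = 0.0653, edgeR), against 0.35 with it. The same library was also the highest of its group for Lrp2, Clcn5 and Ocrl.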

How the results depend on the processing

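No paired analysis was possible because the labels give no replicate numbers shared between groups. The log2 fold changes of Lrpap1, Amn, Cubn and Clcn5 kept their direction and their side of the threshold in all 20 alternatives, and no gene of the 8 reversed. At a threshold of 0.01 the calls of Lrp2 (0.38), Dab2 (0.35), Ocrl (0.24) and Fcgrt (0.27) were lost and 2 of the 8 remained, with 1731 genes higher and 1053 lower over all, 23 pathway genes higher and 14 cell type markers lower. With limma-trend on normalized values and with the deposited factors as offsets, Ocrl had 0.12 (both) and Fcgrt 0.22 (both), not called. The deposited factors enter both. Leaving out single libraries gave 0.25 to 0.43 for Dab2, 0.20 to 0.27 for Ocrl and 0.22 to 0.32 for Fcgrt, and 3 to 6 genes called. Pathway genes called lower numbered 5, but 9 with DESeq2, 8 with 1 surrogate variable and 9 at a threshold of 0.1. Relative to S3 markers, the differences were -1.34 for Lrp2, -1.54 for Cubn, -1.27 for Amn, -1.37 for Dab2, -1.57 for Clcn5, -1.48 for Ocrl, -0.90 for Lrpap1 and -1.45 for Fcgrt. Relative to both marker lists they were -1.01 for Lrp2, -1.21 for Cubn, -0.94 for Amn, -1.04 for Dab2 and -1.24 for Clcn5. For Ocrl, Lrpap1 and Fcgrt they were -1.15, -0.57 and -1.12. The S3 marker mean differed more between the groups than the S1 and S2 mean, which enlarges these differences. The omission of single libraries from the marker ratios was added after seeing the data. The cause of the other changes was not tested.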
